A study of Mus musculus with 21 samples.

Results

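Infiltrating myeloid cells were compared with microglia from Fgg γ390–396A mice, both sorted 1 d after controlled cortical impact (CCI), an open-skull model of traumatic brain injury. The comparison took 6 of the 21 RNA-seq libraries of the series, the 3 of each cell type that the labels assign to this genotype and time, and no measured value entered the choice. The study addressed how the binding of fibrin to innate immune cells shapes the response to brain injury, and its other libraries came from WT mice at 1 d, from both genotypes at 7 d and from microglia of sham-operated WT mice. Here the 2 cell types were set against each other within the mutant genotype, and the same difference in WT mice was used to ask whether it depended on genotype.

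All mice of this comparison were Fgg γ390–396A knock-in males of 17 to 24 weeks on the C57BL/6 background. In these mice residues 390 to 396 of the fibrinogen γ chain are changed so that fibrin no longer engages the integrin CD11b/CD18, while clotting is retained. As a knock-in of the mouse line, the mutation was shared by both cell types compared. Fibrinogen is made in the liver and circulates, so the mutant protein comes through the blood. Each library came from a tissue block around the lesion of 2 mice pooled at random. The sort took 40000 CD45 low CD11b+ cells as microglia or 25000 CD45 high CD11b+ cells as infiltrating myeloid cells, which the labels name macrophages, although this gate also admits neutrophils and other CD11b+ leukocytes. No source states whether the microglia and the myeloid cells of 1 replicate number came from the same pool.

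Microglia are the resident macrophages of the brain parenchyma. They descend from embryonic precursors, renew themselves in place and keep their identity through TGF-β, colony stimulating factor 1 receptor and the transcription factor SALL1. Monocytes and neutrophils are made in the bone marrow and enter the injured brain from the blood, monocytes largely through the chemokine receptor CCR2 and neutrophils through CXCR2, and monocytes then turn into macrophages in the tissue. CD11b and CD18, encoded by Itgam and Itgb2, are carried by all of these cells.

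The 6 libraries held 26815203 to 51875767 estimated counts, of which 47.1% to 53.1% fell on ribosomal RNA genes. Levels are given in CPM, counts relative to the library total, after scaling by trimmed mean of M-values (TMM) factors, on a length-corrected scale on which levels can be compared between genes. The TMM factors were 0.93 to 1.29 in microglia and 0.78 to 0.84 in infiltrating myeloid cells. A floor of 3 counts corresponded to 0.0448 to 0.136 CPM. Fgg itself, which carries the mutation, had 6, 2 and 4 counts in microglia and 0, 0 and 1 in infiltrating myeloid cells. It had 3, 3 and 14 counts in microglia of mutant mice at 7 d and none in the 12 libraries of WT and sham-operated mice, so that every library with a count of Fgg was labelled as mutant. Log2 levels of replicates correlated at r = 0.938 to 0.976 across genes, which are not independent of each other.

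The cell type labels were checked against marker genes. Homeostatic microglia were marked by 14 genes such as P2ry12, Tmem119 and Sall1, whose summed level was 9219.5, 7819.6 and 7462 CPM in the microglia libraries and 1018, 1689 and 1278 CPM in the infiltrating myeloid libraries. Inflammatory monocytes were marked by 10 genes such as Ccr2, Ly6c2 and Vcan, and their sum was 4294, 3769.9 and 4169 CPM in infiltrating myeloid cells against 155, 43.5 and 54.2 CPM in microglia. Both labels were thus met, and the groups did not overlap for either sum. Neutrophil markers were high in the sort labelled macrophages, with 12 genes summing to 2842, 6072 and 5409.7 CPM there and 453, 139 and 107 CPM in microglia. The infiltrating fraction therefore held transcripts of neutrophils beside those of monocytes and macrophages, and it is called infiltrating myeloid cells throughout.

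**Figure D1:**
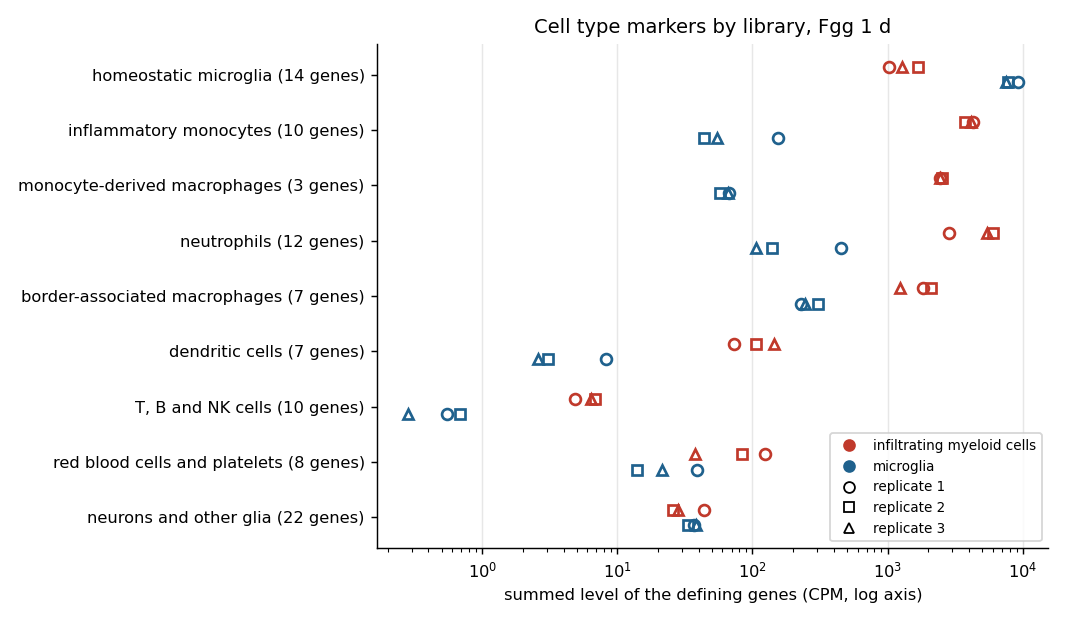
Summed level of the defining markers of 9 cell types in each of the 6 libraries, in CPM on a log axis, with infiltrating myeloid cells and microglia in different colours and replicates as different symbols. Monocyte, neutrophil and monocyte-derived macrophage markers lie far to the right in all 3 infiltrating myeloid libraries, homeostatic microglia markers in all 3 microglia libraries, and replicate 1 of microglia has 155 CPM of monocyte markers against 43.5 and 54.2 CPM in the other microglia libraries.

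Replicate 1 of microglia stood apart in the markers of recruited cells, with the highest monocyte and neutrophil sums of the 3 microglia libraries, although both stayed far below every infiltrating myeloid library. Defining lymphocyte markers were sparse. The 10 defining genes of T, B and NK cells summed to 4.88, 6.79 and 6.35 CPM in infiltrating myeloid cells and 0.552, 0.680 and 0.281 CPM in microglia, whereas all 30 tested genes of that list summed to 137, 157 and 163 CPM and to 182, 155 and 156 CPM, which overlapped. Markers of neurons and other glia summed to 44.0, 25.8 and 27.9 CPM and 37.2, 33.6 and 37.9 CPM, so that these sums overlapped. Of the counts outside ribosomal RNA genes, mitochondrially encoded protein genes took 4.28% to 6.21% in infiltrating myeloid cells and 8.75% to 12.4% in microglia. As the libraries are bulk samples, fewer cells of a type and less RNA per cell cannot be told apart.

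The transcriptomes of the 2 cell types differed widely at 1 d post-CCI. Of 23815 genes tested with edgeR's quasi-likelihood test, 1657 were higher in infiltrating myeloid cells and 2310 were lower, at a Benjamini-Hochberg adjusted p under 0.05 and an absolute log2 fold change above 1. These made up 6.96% and 9.7% of the genes tested, against which the shares of each gene group below are read. Among the called genes, 1516 of those higher and 1709 of those lower were protein coding, and their median fold was 5.35 higher and 3.94 lower. In 1544 of the higher genes and 2241 of the lower genes every library of one cell type lay beyond every library of the other. Over all genes tested this held, in either direction, for 7636 genes, or 32.1%. The median log2 fold change over all genes tested was -0.13. Differences were large at both ends, with 370 genes above a log2 fold change of 5 and 444 below -5. Of these, 318 and 188 were protein coding, so that most genes below -5 were not. No count in any microglia library was found for 91 of the higher genes, and none in any infiltrating myeloid library for 377 of the lower genes. The infiltrating myeloid libraries had 15158 to 17075 of the tested genes with a count, and the microglia libraries 17431 to 19340.

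**Figure D2:**
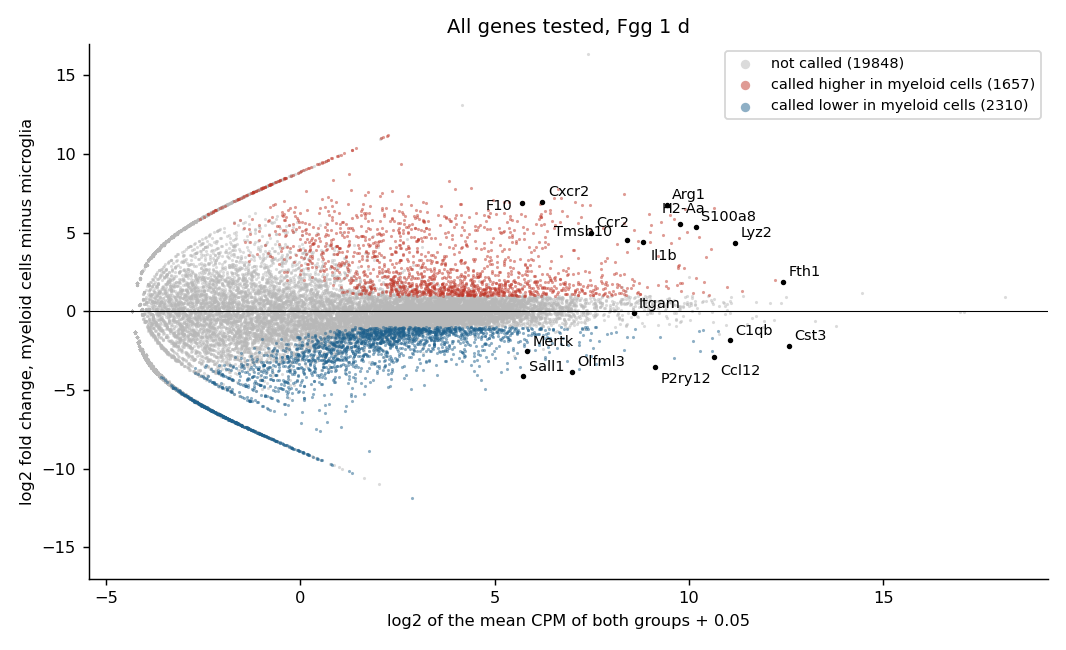
Log2 fold change of infiltrating myeloid cells over microglia for the 23815 genes tested, against the log2 of their mean CPM plus 0.05, with called genes coloured. The 1657 higher and 2310 lower genes lie on both sides at all levels, and the curved edges at low levels are genes without counts in 1 cell type.

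The balance between higher and lower genes moved with the scaling. With total counts in place of TMM factors, 1140 genes were higher and 3675 lower, so that 23.7% of the calls were higher instead of 41.8%, and the median gene shifted by -0.39 on the log2 scale. In a fit of the 6 libraries alone, which have fewer degrees of freedom, 1479 genes were higher and 691 lower, and 2032 of the 3967 calls remained. List medians that lie closer to 0 than the shift of the scaling are given as values and not as directions. Where at most 5 members of a list were called in a direction they are in most cases named in brackets, whatever their values. Without replicate 1 of microglia 1351 genes were higher and 1744 lower. Counts of at most 3 members of a list in a direction moved by up to 3 members when single libraries were left out, and nothing is read from them. Total counts also brought Ctss (-1.09), Fcgr3 (-1.09), Irf8 (-1.30), Timp2 (-1.23), Lgmn (-1.32) and Hk2 (-1.01), which were not called with TMM factors, past the fold threshold on the lower side.

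Among protein-coding genes whose groups did not overlap, the smallest adjusted p belonged to Tmsb10, which encodes the actin-sequestering thymosin β10. Tmsb10 had 654, 671 and 614 CPM in infiltrating myeloid cells and 35.7, 21.5 and 25.8 CPM in microglia (log2 fold change 4.55, SE 0.22, adjusted p = 4.1e-10). Fabp5, a carrier of fatty acids, had 239, 162 and 147 CPM in infiltrating myeloid cells and 4.12, 3.80 and 4.02 CPM in microglia (log2 fold change 5.52, SE 0.34, adjusted p = 9.6e-09). Prdx6, a peroxiredoxin that reduces oxidized phospholipids, had 216, 266 and 258 CPM in infiltrating myeloid cells and 13.3, 16.3 and 19.8 CPM in microglia (log2 fold change 3.90, SE 0.24, adjusted p = 9.6e-09). In all 3 genes replicates of a cell type varied less than 2-fold, and every infiltrating myeloid library was many times higher. Bhlhe40, a transcription factor of inflammatory macrophages, had 72.0, 78.7 and 92.5 CPM in infiltrating myeloid cells and 1.75, 1.43 and 3.13 CPM in microglia (log2 fold change 5.29, SE 0.37, adjusted p = 2.9e-08). The other members of this group of 10 were the adhesion regulator Cyth1 at 3.96 (adjusted p = 1.7e-08), the heparan sulfate endosulfatase Sulf2 at 3.54 (adjusted p = 2.5e-08), Sh3bgrl at 3.44 (adjusted p = 2.7e-08), Crybg1 at 4.99 (adjusted p = 4.4e-08), the glutathione transferase Gstm1 at 3.33 (adjusted p = 4.4e-08) and the phospholipid-binding annexin Anxa4 at 2.97 (adjusted p = 5.6e-08), each value a log2 fold change.

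On the lower side the same rule gave 10 genes as well. Jam2, a junctional adhesion molecule, had 1.94, 3.08 and 3.11 CPM in infiltrating myeloid cells and 27.4, 22.8 and 22.1 CPM in microglia (log2 fold change -3.14, SE 0.22, adjusted p = 2.7e-08). Mertk, a receptor for the engulfment of dying cells, had 15.0, 13.6 and 21.6 CPM in infiltrating myeloid cells and 96.4, 96.0 and 100.8 CPM in microglia (log2 fold change -2.55, SE 0.18, adjusted p = 2.7e-08). Olfml3, a secreted protein typical of microglia, had 13.6, 16.0 and 19.7 CPM in infiltrating myeloid cells and 295, 219 and 196 CPM in microglia (log2 fold change -3.84, SE 0.28, adjusted p = 4.4e-08). The groups were far apart in each of the 3 genes, and the microglia libraries of Mertk spanned only a few CPM. Rgmb, a co-receptor for bone morphogenetic proteins, had 0.316, 0.444 and 0.644 CPM in infiltrating myeloid cells and 11.6, 8.51 and 8.36 CPM in microglia (log2 fold change -4.30, SE 0.33, adjusted p = 6.7e-08), the largest fold of the 10. The remaining log2 fold changes were -2.89 (adjusted p = 4.4e-08) for the ion cotransporter Slc12a2, -1.94 (adjusted p = 4.4e-08) for the transcription factor Mef2c, -2.51 (adjusted p = 5.3e-08) for the tight junction scaffold Tjp1, -2.66 (adjusted p = 5.6e-08) for Cxxc5, -3.26 (adjusted p = 5.6e-08) for the scaffold protein Tanc2 and -2.45 (adjusted p = 7.7e-08) for Fchsd2, a regulator of membrane traffic.

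The most abundant called genes set iron storage and calcium-binding proteins against complement, a chemokine and a protease inhibitor. Fth1 and Ftl1 encode the heavy and light chains of ferritin, the store of intracellular iron. Fth1 had 7327, 9353 and 9280.5 CPM in infiltrating myeloid cells and 1317, 2855 and 2859 CPM in microglia (log2 fold change 1.88, SE 0.31, adjusted p = 0.00017). Ftl1 had 7114, 7766 and 7814 CPM in infiltrating myeloid cells and 1225, 2076 and 2325 CPM in microglia (log2 fold change 2.01, SE 0.26, adjusted p = 1.9e-05). Lyz2, the lysozyme of myeloid cells, had 4256, 4496 and 4652 CPM in infiltrating myeloid cells and 357, 135 and 162 CPM in microglia (log2 fold change 4.36, SE 0.52, adjusted p = 6.1e-06), with part of its reads possibly shared with Lyz1. S100a11, a calcium-binding protein, had 3143, 3621 and 2689 CPM in infiltrating myeloid cells and 67.0, 19.3 and 14.5 CPM in microglia (log2 fold change 6.55, SE 0.74, adjusted p = 3.4e-06). In all 4 genes the lowest infiltrating myeloid library exceeded the highest microglia library, and replicate 1 of microglia was the highest of its group for Lyz2 and S100a11. The ribosomal protein gene Rps27 completed the group at 1.32 (adjusted p = 3.6e-05), a call that was lost with total counts, under which its log2 fold change was 0.94.

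In microglia the most abundant of the called genes was Cst3, the protease inhibitor cystatin C, which had 1607, 2644 and 2310.5 CPM in infiltrating myeloid cells and 11323, 8513 and 10178 CPM in microglia (log2 fold change -2.19, SE 0.22, adjusted p = 8.1e-07). Ccl12, a ligand of CCR2 that draws monocytes, had 191, 366 and 601 CPM in infiltrating myeloid cells and 1938, 2554 and 4037 CPM in microglia (log2 fold change -2.88, SE 0.35, adjusted p = 8.4e-06). The cells that carry CCR2 thus had less of this ligand than the microglia, and no library of the 2 cell types overlapped in either gene. C1qb and C1qc, chains of the complement starter C1q, are given with complement below.

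Homeostatic microglial genes were the group with the highest share of lower calls. Of 40 genes tested, 37 were lower in infiltrating myeloid cells and none was higher, with a median log2 fold change of -2.54 beside -0.13 for all genes and a background of 9.7% lower genes. The 3 members not called were Selplg, Itgb5 and Vsir, chosen for mention after their values were seen, with log2 fold changes of -0.84, -0.98 and -0.95. Sall1, the transcription factor that maintains microglial identity, had 3.34, 6.07 and 7.81 CPM in infiltrating myeloid cells and 126, 92.0 and 85.3 CPM in microglia (log2 fold change -4.13, SE 0.34, adjusted p = 1.1e-07). P2ry13, a receptor for ADP, had 28.6, 32.2 and 42.7 CPM in infiltrating myeloid cells and 455, 328 and 291 CPM in microglia (log2 fold change -3.38, SE 0.27, adjusted p = 1.0e-07). Tmem119, a surface marker of microglia, had 43.0, 50.4 and 33.1 CPM in infiltrating myeloid cells and 321, 293 and 245 CPM in microglia (log2 fold change -2.76, SE 0.29, adjusted p = 1.5e-06). Every infiltrating myeloid library lay below every microglia library for all 40 genes, beside the 32.1% of all genes without overlap in either direction. Sparc, a matrix protein that microglia express, stood at -3.51 (adjusted p = 2.6e-07) on the log2 scale.

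The level of these genes in the microglia of the injured mutant mice was itself below that of uninjured mice, as background to this comparison. The 40 genes summed to 40646 to 44245 CPM in microglia of sham-operated WT mice, to 26688 to 29569 CPM in microglia of the mutant mice at 1 d and to 4799 to 7876 CPM in the infiltrating myeloid cells. The sham libraries differ from the others in genotype as well as injury, and that difference was not tested here.

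Monocyte genes were higher nearly throughout. Of 35 genes of inflammatory monocytes, 34 were higher and none was lower, with a median log2 fold change of 5.19 against a background of 6.96% higher genes. The exception was Ly6c1 at -0.68, named after its value was seen, whose reads may be split with its near copy Ly6c2. S100a4, a calcium-binding protein of motile cells, had 1882, 1739 and 2023 CPM in infiltrating myeloid cells and 44.4, 7.02 and 10.9 CPM in microglia (log2 fold change 6.49, SE 0.65, adjusted p = 8.5e-07). Fn1, the matrix protein fibronectin, had 1229.8, 978 and 748 CPM in infiltrating myeloid cells and 39.3, 26.2 and 25.6 CPM in microglia (log2 fold change 5.02, SE 0.61, adjusted p = 7.9e-06). Vcan, the proteoglycan versican, had 85.9, 94.0 and 122 CPM in infiltrating myeloid cells and 2.80, 0.403 and 0.603 CPM in microglia (log2 fold change 6.22, SE 1.03, adjusted p = 0.00022). Replicate 1 of microglia was the highest of its group in all 3 genes, yet the cell types did not overlap. Plac8 stood at 5.58 (adjusted p = 0.00041), F13a1, the clotting transglutaminase factor XIII A, at 4.40 (adjusted p = 0.00061) and Ms4a4c, which belongs to a family of close copies, at 4.72 (adjusted p = 0.00070) on the log2 scale.

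Genes of monocyte-derived macrophages were also higher, in 22 of 28 tested members with none lower and a median of 3.49. Arg1, the arginase that turns arginine into ornithine, had 1304, 1547 and 1255 CPM in infiltrating myeloid cells and 28.1, 4.28 and 4.34 CPM in microglia (log2 fold change 6.79, SE 0.79, adjusted p = 4.3e-06). Lgals3, the galectin of phagocytic macrophages, had 935, 885 and 1094 CPM in infiltrating myeloid cells and 29.8, 49.2 and 56.0 CPM in microglia (log2 fold change 4.43, SE 0.48, adjusted p = 2.1e-06). Ms4a7, which distinguishes blood-derived macrophages from microglia, had 201, 115 and 86.2 CPM in infiltrating myeloid cells and 9.02, 4.43 and 5.02 CPM in microglia (log2 fold change 4.43, SE 0.77, adjusted p = 0.00032). Arg1 was thus among the most abundant genes of the infiltrating myeloid cells while 2 of the 3 microglia libraries held under 5 CPM. Genes of border-associated macrophages, which line the meninges and vessels, were higher in 9 of 20 with a median of 1.99. Of their defining markers Pf4, which is also made by platelets and monocyte-derived cells, stood at 4.32 (adjusted p = 0.00059), whereas Cbr2 at 1.68 (adjusted p = 0.11), Lyve1 at 2.12 (adjusted p = 0.13) and Cd163 at 1.85 (adjusted p = 0.15) did not pass the test, although Lyve1 and Cd163 did in the fit of the 6 libraries alone (adjusted p = 0.033 and 0.040) and Cbr2 with the Wald test of DESeq2 (adjusted p = 0.037). The call of Mrc1, the mannose receptor, at 2.24 (adjusted p = 0.020) was lost under 3 alternatives, among them without replicate 2 of microglia (log2 fold change 2.11) and without replicate 3 (2.22), and that of Folr2 at 1.88 (adjusted p = 0.029) under 7, with log2 fold changes of 1.91 and 1.46 without the same libraries and 1.70 and 1.74 without replicates 2 and 3 of the infiltrating myeloid cells.

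Neutrophil genes were higher in 30 of 39 tested members and lower in none, with a median of 5.15, or 5.01 with genes at 0 in 1 cell type set to their bounds. Cxcr2, the receptor that guides neutrophils to chemokines, had 135, 168 and 144 CPM in infiltrating myeloid cells and 2.43, 0.604 and 0.281 CPM in microglia (log2 fold change 6.97, SE 1.12, adjusted p = 0.00015). Mmp9 and Mmp8, the matrix proteases of neutrophil granules, had log2 fold changes of 5.39 (adjusted p = 0.00022) and 5.18 (adjusted p = 0.0014). S100a8, a subunit of the antimicrobial protein calprotectin, had 1329, 2987 and 2477 CPM in infiltrating myeloid cells and 133, 16.2 and 12.4 CPM in microglia (log2 fold change 5.39, SE 1.42, adjusted p = 0.0095). Retnlg had 231, 378 and 227 CPM in infiltrating myeloid cells and 15.2, 1.64 and 0 CPM in microglia (log2 fold change 5.59, SE 1.46, adjusted p = 0.0092). All 3 of these genes were highest among microglia in replicate 1, by a wide margin for S100a8. Csf3r, the receptor for granulocyte colony stimulating factor, was present in microglia as well, at 99.5, 80.3 and 82.7 CPM beside 283, 161 and 165 CPM (log2 fold change 1.21, SE 0.25, adjusted p = 0.0016), and its call was lost with total counts (log2 fold change 0.78) and without replicate 1 of the infiltrating myeloid cells (0.90).

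Of the granule proteins that neutrophil precursors make in the bone marrow, Camp, Ngp and Ltf were low in both cell types. These genes were picked after their values were seen, whereas Lcn2 and Mmp8 of the same list were called higher. The log2 fold change of Lcn2 ran from 3.55 to 5.10 over 16 alternatives, and its call was lost under 6 of them. Camp, the cathelicidin, had 0, 4.76 and 1.04 CPM in infiltrating myeloid cells and 9.10, 2.29 and 0 CPM in microglia. Ngp, the neutrophilic granule protein, had 0.136, 4.12 and 5.21 CPM in infiltrating myeloid cells and 16.9, 2.14 and 0.0402 CPM in microglia, and Ltf, lactoferrin, had 1.04, 1.04 and 4.09 CPM in infiltrating myeloid cells and 1.76, 0.151 and 0 CPM in microglia. The libraries of the 2 cell types overlapped in each, and none passed the test (adjusted p = 0.71, 0.70 and 0.46). Ly6g, the surface marker of mature neutrophils, was at 2.08, 5.16 and 4.84 CPM in infiltrating myeloid cells and 0.328, 0 and 0 CPM in microglia and did not pass the test either (adjusted p = 0.083), although it did without replicate 1 of microglia (adjusted p = 0.048), the only microglia library with counts of Ly6g (22), and under 3 other alternatives, with the Wald test of DESeq2, the 6 libraries alone and a replicate block (adjusted p = 0.049, 0.043 and 0.045).

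Markers of further cell types were looked at in both sorts, although microglia express some of them as well. Dendritic cell genes were higher in 10 and lower in 2 (Batf3 and Siglech) of 21 tested members. Siglech also counts among the homeostatic microglial genes. Flt3, a receptor of dendritic cell precursors, had 5.96, 6.10 and 7.84 CPM in infiltrating myeloid cells and 0.179, 0.277 and 0.0402 CPM in microglia (log2 fold change 5.24, SE 0.80, adjusted p = 9.0e-05), while Ccr7, which directs dendritic cells to lymph nodes, had 11.9, 36.2 and 37.9 CPM in infiltrating myeloid cells and 1.54, 1.61 and 0.241 CPM in microglia (log2 fold change 4.62, SE 0.85, adjusted p = 0.00057). Cd209a, carried by monocyte-derived dendritic cells, stood at 5.30 (adjusted p = 0.00063), and Clec9a and Xcr1 of cross-presenting dendritic cells, at or below 0.924 CPM in all 6 libraries, were not called with all libraries, although Clec9a was without replicate 1 of microglia (adjusted p = 0.038). The cell types did not overlap for Flt3 or Ccr7.

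Of 30 tested genes of T, B and NK cells, 10 were higher and 1 (Ighm) was lower, at levels of a few CPM. Cd3e, a chain of the T cell receptor complex, had 1.90, 0.173 and 3.56 CPM in infiltrating myeloid cells and none in microglia. Its mean was at least 23.4-fold higher when microglia are set to the floor of 3 counts per library (adjusted p = 0.0043). Cd3d and Cd3g of the same complex were not called. They had 5, 37 and 9 and 18, 0 and 7 counts in infiltrating myeloid cells, and 0, 0 and 6 and 25, 0 and 0 in microglia. Cd8a, Ncr1, Klrb1c and Trac did not pass the test, although Cd8a did without replicate 2 of the infiltrating myeloid cells (adjusted p = 0.046) and Klrb1c did with the Wald test of DESeq2 (adjusted p = 0.011) and after edgeR's filterByExpr (adjusted p = 0.035). Without replicate 1 of microglia 4 members of this list were higher, and without replicate 2 or 3 of microglia 6 were. Red blood cell and platelet genes were higher in 2 (Ppbp and Pf4) and lower in 3 (Alas2, Gp9 and Treml1) of 16 tested members. Ppbp, a platelet chemokine that monocytes also express, stood at 4.98 (adjusted p = 0.00092). Gp9, part of the platelet receptor for von Willebrand factor, stood at -3.51 (adjusted p = 0.0018). In microglia of sham-operated WT mice Gp9 had 1481, 998 and 1398 counts, beside 0, 4 and 0 for Itga2b of the same list. Nothing is read from Gp9 about platelets, and the source of its transcripts was not tested. The call of Gp9 was lost in the fit of the 6 libraries alone (adjusted p = 0.052) and with a replicate block (adjusted p = 0.075), that of Alas2 under 6 alternatives, 4 of which left out 1 library (replicate 1 of microglia or any of the infiltrating myeloid libraries), and without replicate 1 of microglia 1 member was lower. Myelin and astrocyte transcripts did not move one way. Slc1a3, a glutamate transporter of astrocytes and microglia, had 2.71, 1.85 and 2.24 CPM in infiltrating myeloid cells and 18.3, 11.2 and 16.7 CPM in microglia (log2 fold change -2.77, SE 0.29, adjusted p = 1.4e-06), and of 34 tested genes of neurons and other glia 4 were higher (Aldoc, Gja1, Mbp and Flt1) and 3 were lower (Slc1a3, Mog and Mag), while none was higher without replicate 1 of microglia and 1 was without replicate 3 of microglia or replicate 1 of the infiltrating myeloid cells. The part of any of these cells in the differences between the sorts was not tested.

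**Figure D3:**
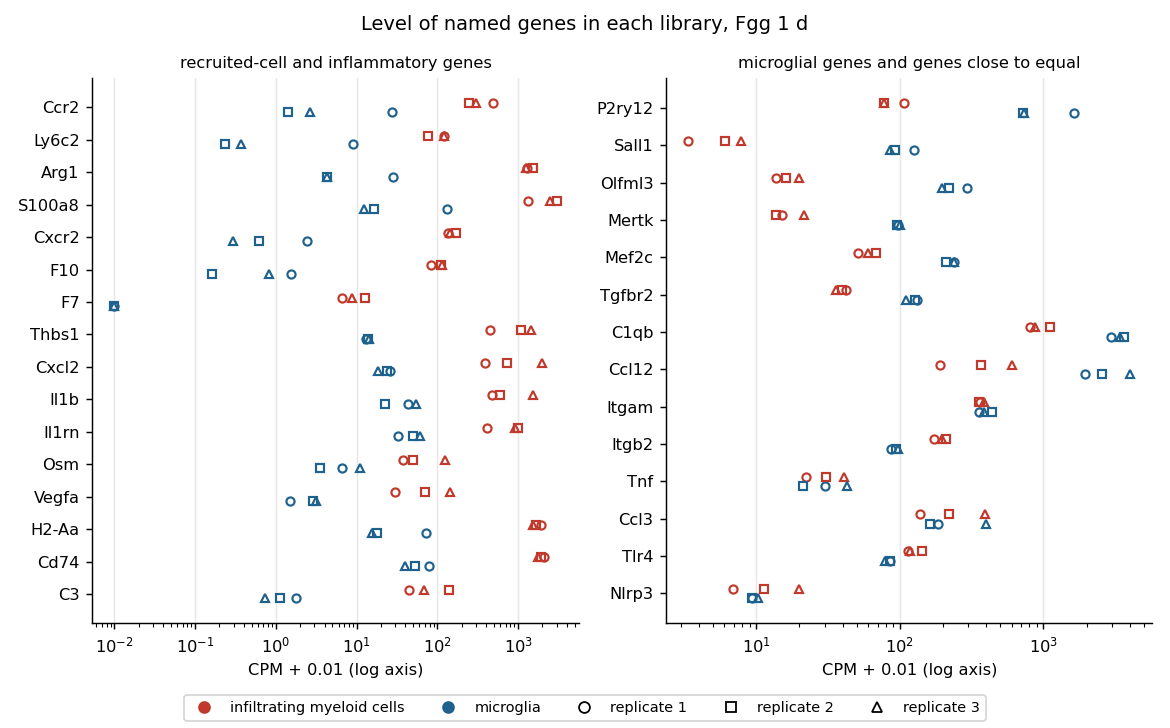
Level of 30 genes in each library as CPM plus 0.01 on a log axis, with infiltrating myeloid cells and microglia in different colours and replicates as different symbols. Recruited-cell and inflammatory genes at the left separate without overlap, and at the right microglial genes separate the other way while Itgam, Tnf, Ccl3 and Nlrp3 overlap.

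The receptor that the mutant fibrin cannot engage was carried by both cell types. Itgam, encoding CD11b, had 361, 354 and 388 CPM in infiltrating myeloid cells and 354, 442 and 388 CPM in microglia, overlapping levels with a log2 fold change of -0.10 (SE 0.16, adjusted p = 0.71). Itgb2, encoding CD18, had 174, 209.8 and 196 CPM in infiltrating myeloid cells and 86.4, 94.3 and 96.5 CPM in microglia (log2 fold change 1.06, SE 0.14, adjusted p = 2.0e-05) and did not overlap, but with total counts its log2 fold change was 0.66, below the threshold. Ptprc, encoding CD45, on which the sort was made, had 268, 229 and 267 CPM in infiltrating myeloid cells and 184, 173 and 178 CPM in microglia (log2 fold change 0.51, SE 0.12, adjusted p = 0.0031), below the fold threshold. The transcript of the gating protein thus differed by less than 2-fold between cells sorted for low and high CD45.

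Adhesion genes other than the fibrin receptor showed a stronger division. Of 34 tested genes of leukocyte integrins and adhesion, 13 were higher and 5 (Itga6, Itga9, Itgb3, F11r and Jam2) were lower, with a median of 0.33. Itgal, which pairs with CD18 to form LFA-1, had 14.7, 44.3 and 34.7 CPM in infiltrating myeloid cells and 0.597, 0.378 and 0.522 CPM in microglia (log2 fold change 5.95, SE 0.46, adjusted p = 7.2e-08). Itga4, a subunit of the integrin VLA-4 that binds vascular VCAM-1, had 25.4, 28.2 and 35.3 CPM in infiltrating myeloid cells and 2.76, 1.11 and 0.844 CPM in microglia (log2 fold change 4.20, SE 0.46, adjusted p = 2.5e-06). Cd44, the receptor for hyaluronan, had 619, 823 and 916 CPM in infiltrating myeloid cells and 30.0, 43.4 and 34.2 CPM in microglia (log2 fold change 4.45, SE 0.43, adjusted p = 6.1e-07). Microglia held these at low levels in each replicate.

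Transcripts of several clotting factors were present in the infiltrating cells. In this list 12 of 32 tested genes were higher and 4 were lower, with a median of 0.87. F10, the clotting factor X that generates thrombin, had 82.8, 112 and 113 CPM in infiltrating myeloid cells and 1.54, 0.151 and 0.804 CPM in microglia (log2 fold change 6.89, SE 0.74, adjusted p = 1.9e-06). F7, the clotting factor VII that starts the tissue factor pathway, had 6.60, 12.5 and 8.65 CPM in infiltrating myeloid cells and no count in microglia, at least 115-fold higher over a floor of 3 counts per library (adjusted p = 1.1e-05). F5, the cofactor of factor X, had 13.6, 15.5 and 15.8 CPM in infiltrating myeloid cells and 0.746, 0.176 and 0.121 CPM in microglia (log2 fold change 5.32, SE 0.96, adjusted p = 0.00048). F5 stayed under 1 CPM and F10 under 2 CPM in every microglia library, while the infiltrating myeloid libraries were close to each other for both. Thbs1, thrombospondin 1, which activates latent TGF-β, had 442, 1099 and 1442 CPM in infiltrating myeloid cells and 13.2, 13.8 and 14.1 CPM in microglia (log2 fold change 6.18, SE 0.62, adjusted p = 9.4e-07). Thbd, thrombomodulin, which turns thrombin into an anticoagulant, stood at 4.66 (adjusted p = 0.00013) and Plaur, the urokinase receptor of fibrinolysis, at 1.91 (adjusted p = 0.00053). The 4 lower members, named after their values were seen, were Tfpi, the inhibitor of the tissue factor pathway, Serpine2, an inhibitor of thrombin, Pros1, the anticoagulant protein S, and Gas6, which with protein S is a ligand of MERTK, with log2 fold changes of -2.84, -2.20, -2.13 and -2.07.

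Chemokine ligands were higher in 13 and lower in 2 (Ccl11 and Ccl12) of 30 tested members, with a median of 2.21 or 1.94 with genes at 0 set to their bounds. Cxcl2, a ligand of CXCR2 that draws neutrophils, had 389, 724 and 1969 CPM in infiltrating myeloid cells and 25.6, 23.8 and 18.4 CPM in microglia (log2 fold change 5.51, SE 1.01, adjusted p = 0.00057). Ccl2, the main ligand of CCR2, had 447, 529 and 836 CPM in infiltrating myeloid cells and 101.3, 98.9 and 229.9 CPM in microglia (log2 fold change 2.08, SE 0.42, adjusted p = 0.0013), whereas Ccl12 was lower as given above, so the ligands of the same receptor differed in opposite directions. Replicate 3 was the highest library of its cell type for Ccl2 in both sorts. Ccl3 and Ccl4, which draw monocytes and T cells, overlapped between the cell types, and their log2 fold changes were 0.01 (adjusted p = 1.00) and -0.59 (adjusted p = 0.38). Cxcl10, an interferon-induced chemokine, had 138, 64.4 and 409 CPM in infiltrating myeloid cells and 49.2, 57.6 and 244 CPM in microglia (log2 fold change 0.80, SE 0.64, adjusted p = 0.39) and did not pass the test, although it did without replicate 3 of microglia (log2 fold change 1.93). Ccl5, at 1.64 (adjusted p = 0.019), lost its call under 4 alternatives, with log2 fold changes of 1.29, 1.39 and 1.36 without replicate 1 or 2 of microglia or replicate 3 of the infiltrating myeloid cells.

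Receptors for chemokines and other attractants were higher in 13 of 32 and lower in 1 (Cx3cr1), with 2 or 3 lower without replicate 1 or 3 of either cell type. Ccr1 had 87.8, 83.3 and 102 CPM in infiltrating myeloid cells and 6.91, 10.999 and 9.44 CPM in microglia (log2 fold change 3.32, SE 0.35, adjusted p = 1.5e-06). Cxcr4, which retains leukocytes in the bone marrow, had 174, 104 and 151 CPM in infiltrating myeloid cells and 4.65, 0.629 and 1.04 CPM in microglia (log2 fold change 6.02, SE 0.88, adjusted p = 5.7e-05). Ccr2, the entry receptor of monocytes, had 483, 249 and 301 CPM in infiltrating myeloid cells and 27.7, 1.41 and 2.65 CPM in microglia (log2 fold change 5.01, SE 0.95, adjusted p = 0.00075). Replicate 1 of microglia was the highest of its group for Cxcr4 and Ccr2 and held 27.7 CPM of Ccr2 beside 1.41 and 2.65 CPM. The fractalkine receptor Cx3cr1, through which neurons restrain microglia, went the other way at -2.46 (adjusted p = 3.4e-06).

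Part of the interleukin-1 and inflammasome genes were higher in infiltrating myeloid cells. In the list of 29 tested genes, 9 were higher and 3 (Il1rl1, Aim2 and P2rx7) lower, or 6 lower without replicate 3 of the infiltrating myeloid cells, with a median of 0.36. Over all alternatives the lower count ran from 0 to 8, and nothing is read from it. Il1b, the secreted pyrogen, had 471, 591 and 1538 CPM in infiltrating myeloid cells and 43.5, 22.7 and 54.7 CPM in microglia (log2 fold change 4.43, SE 0.61, adjusted p = 3.3e-05). Il1rn, the antagonist of its receptor, had 409, 1000.3 and 911 CPM in infiltrating myeloid cells and 33.0, 49.9 and 61.1 CPM in microglia (log2 fold change 4.01, SE 0.54, adjusted p = 2.4e-05). Il1r2, the decoy receptor, had 28.6, 76.0 and 71.1 CPM in infiltrating myeloid cells and 1.75, 0.252 and 0 CPM in microglia (log2 fold change 6.28, SE 0.99, adjusted p = 0.00013). The agonist and both of its inhibitors were therefore higher in the same libraries. Il1a, the alarmin, had 5.33, 14.2 and 40.7 CPM in infiltrating myeloid cells and 42.5, 34.1 and 57.4 CPM in microglia and a log2 fold change of -1.15 (adjusted p = 0.14), with replicate 3 of the infiltrating myeloid cells overlapping microglia, and without that library it was called at -2.18. Casp1 and Casp4, the caspases of the inflammasomes, were not called, with log2 fold changes of 0.36 (adjusted p = 0.31) and 0.43 (adjusted p = 0.26), and neither was the sensor Nlrp3 at 0.40 (adjusted p = 0.38).

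The families of TNF, interleukin-6 and interleukin-10 were higher in 7 of 25 tested members and lower in 1 (Il6st), and without replicate 1 or 2 of microglia 4 were higher. Tnf had 22.3, 30.4 and 41.1 CPM in infiltrating myeloid cells and 30.0, 21.2 and 43.1 CPM in microglia (log2 fold change -0.01, SE 0.44, adjusted p = 1.00), with full overlap. Osm, the cytokine oncostatin M, had 37.1, 49.6 and 123 CPM in infiltrating myeloid cells and 6.56, 3.50 and 11.1 CPM in microglia (log2 fold change 3.32, SE 0.50, adjusted p = 7.9e-05). Il6 and Il10 were low, at 0.0904, 3.21 and 3.42 CPM in infiltrating myeloid cells and 2.37, 0.378 and 3.17 CPM in microglia for Il6, and at most 3.33 CPM in any library for Il10, and neither passed the test. Toll-like receptors and their adaptors had 4 (Tlr5, Tlr8, Irak2 and Irak3) higher and 6 lower of 26 genes. Tlr4, the receptor for endotoxin, stood at 0.59 (adjusted p = 0.044) and Tlr2 at 0.43 (adjusted p = 0.25), both within the fold threshold. Tlr7, which senses single-stranded RNA, was lower at -1.01 (adjusted p = 0.0015), a value so close to the threshold that its call was lost under 8 alternatives, which included leaving out replicate 2 of microglia (-0.93) or replicate 1 of the infiltrating myeloid cells (-0.87).

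**Figure D4:**
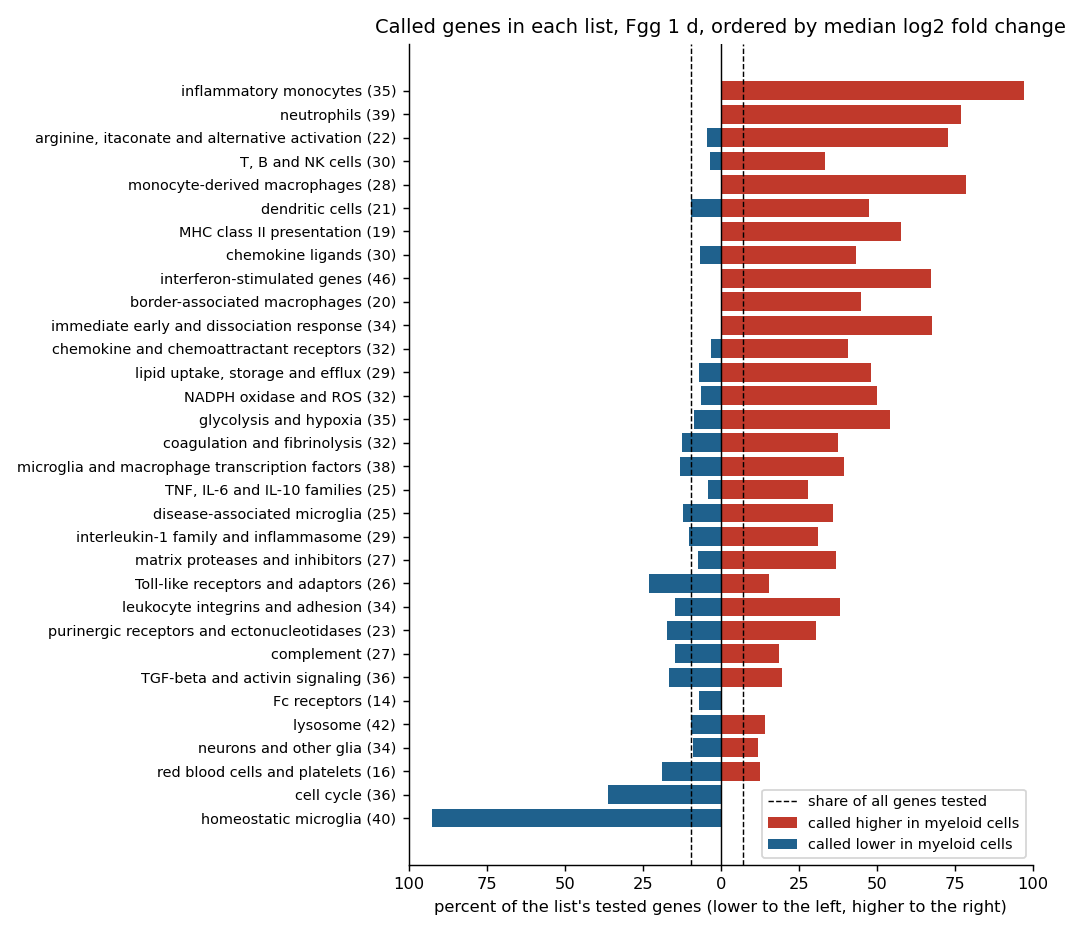
Percent of the tested genes of each of 32 gene lists that were called lower, to the left, or higher, to the right, ordered by median log2 fold change, with dashed lines at 9.7% and 6.96%, the shares over all genes. Monocyte, neutrophil, arginine and interferon lists extend to the right and homeostatic microglia and cell cycle lists to the left.

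Oxidative responses of innate immune cells were a main question of the study. Of 32 tested genes, 16 were higher and 2 (Noxo1 and Hvcn1) lower, with a median of 1.14. Cybb, the catalytic subunit of the phagocyte NADPH oxidase, had 62.3, 58.0 and 86.1 CPM in infiltrating myeloid cells and 12.3, 10.7 and 15.3 CPM in microglia (log2 fold change 2.43, SE 0.33, adjusted p = 3.0e-05). Its partner Cyba had 334, 347 and 334 CPM in infiltrating myeloid cells and 154, 191 and 179.8 CPM in microglia and stayed just within the threshold at 0.95 (adjusted p = 0.00062), and passed it under 6 alternatives, at 1.02 without replicate 2 of microglia and at 1.08 to 1.09 with DESeq2 size factors, the Wald test of DESeq2, filterByExpr, the 6 libraries alone and a replicate block. The cytosolic subunit Ncf4 had a log2 fold change of 0.92 (adjusted p = 0.022), which passed under the same alternatives except the block and replicate 2 of microglia, at 1.04 to 1.06, and without replicate 1 of the infiltrating myeloid cells (1.16). Hmox1, the enzyme that degrades heme, had 667, 656 and 566 CPM in infiltrating myeloid cells and 37.3, 37.4 and 65.6 CPM in microglia (log2 fold change 3.75, SE 0.31, adjusted p = 1.3e-07). Among members of this list Hmox1 was high in every infiltrating myeloid library and at most 65.6 CPM in any microglia library.

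Complement divided by component. In all, 5 (C3, Cfb, Cfp, Itgax and Itgb2) of 27 tested genes were higher and 4 lower, among them C1qa, C1qb and C1qc, and without replicate 3 of the infiltrating myeloid cells 7 were lower. The call of Cfb at 2.80 (adjusted p = 0.021) was lost under 5 alternatives, among them without replicate 1 or 2 of microglia or replicate 1 of the infiltrating myeloid cells. C1qb had 808, 1107 and 879.8 CPM in infiltrating myeloid cells and 2938, 3631 and 3414 CPM in microglia (log2 fold change -1.84, SE 0.21, adjusted p = 4.5e-06). C1qa and C1qc, the other chains, stood at -1.88 (adjusted p = 3.0e-05) and -1.71 (adjusted p = 2.2e-05). The C1q chains were lower in all 3 infiltrating myeloid libraries than in any microglia library. C3, the central component, had 44.0, 137 and 67.3 CPM in infiltrating myeloid cells and 1.76, 1.11 and 0.723 CPM in microglia (log2 fold change 6.07, SE 0.89, adjusted p = 5.9e-05). Cfp, properdin, which stabilizes the alternative pathway convertase, had 156, 147 and 128 CPM in infiltrating myeloid cells and 4.98, 2.04 and 2.53 CPM in microglia (log2 fold change 5.48, SE 0.58, adjusted p = 1.8e-06). Microglia thus carried more of the classical starter, and the infiltrating cells more C3 and properdin. Of 14 tested Fc receptors, which bind antibodies, none was higher and 1 was lower, Fcrls, which also counts among the homeostatic microglial genes. Fcgr1, Fcgr2b and Fcgr4 overlapped with log2 fold changes of 0.17, -0.07 and -0.45, and Fcgr3 was at -0.71 (adjusted p = 0.012), within the fold threshold.

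Genes induced by interferon were higher in 31 of 46 tested members and lower in none, with a median of 2.09. Irf7, the master regulator of type I interferon, had 91.6, 31.4 and 78.8 CPM in infiltrating myeloid cells and 5.52, 3.30 and 17.1 CPM in microglia (log2 fold change 2.97, SE 0.51, adjusted p = 0.00030). Isg15, a ubiquitin-like modifier, had 179, 109 and 326 CPM in infiltrating myeloid cells and 17.9, 8.81 and 64.6 CPM in microglia (log2 fold change 2.75, SE 0.59, adjusted p = 0.0021). Ifit1, which binds viral RNA, had 34.7, 28.2 and 60.9 CPM in infiltrating myeloid cells and 3.39, 2.67 and 17.3 CPM in microglia (log2 fold change 2.42, SE 0.60, adjusted p = 0.0064). Replicate 3 was the highest microglia library in these 3 genes, but the cell types did not overlap. Ifit3, at 1.85 (adjusted p = 0.022), lost its call under 4 alternatives, with log2 fold changes of 1.42 and 1.56 without replicates 1 and 2 of microglia and 1.49 without replicate 3 of the infiltrating myeloid cells.

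Antigen presentation on MHC class II was higher in 11 of 19 tested genes and lower in none, with a median of 2.50. H2-Aa and H2-Ab1, the chains of I-A, had log2 fold changes of 5.58 (adjusted p = 4.2e-06) and 5.85 (adjusted p = 6.3e-07), with some reads possibly shared among close copies. H2-Aa had 1903, 1683 and 1525 CPM in infiltrating myeloid cells and 73.2, 18.0 and 15.3 CPM in microglia. Cd74, the invariant chain that guards the peptide groove, had 2109.5, 1909 and 1773 CPM in infiltrating myeloid cells and 77.8, 53.4 and 40.1 CPM in microglia (log2 fold change 5.08, SE 0.39, adjusted p = 5.6e-08). Ciita, the transcription factor that drives the class II genes, had 20.5, 19.4 and 8.79 CPM in infiltrating myeloid cells and 0.627, 0.0252 and 0.0804 CPM in microglia (log2 fold change 5.89, SE 0.91, adjusted p = 0.00010). Class II transcripts were abundant in every infiltrating myeloid library and low in every microglia library, with replicate 1 the highest of the latter for H2-Aa, Cd74 and Ciita. The same list held Ctss and Ctsl, cathepsins that process antigen, at log2 fold changes of -0.68 and -0.90, which were picked after their values were seen.

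Genes of arginine use, itaconate and alternative activation shared a list with genes of prostaglandin and leukotriene synthesis, among them Ptgs2 and Alox5ap. In this mixed list 16 of 22 tested members were higher and 1 (Ltc4s) was lower, with a median of 4.38. These values do not describe arginine and itaconate genes alone. Beside Arg1, Arg2 had 13.7, 22.9 and 17.9 CPM in infiltrating myeloid cells and 0.582, 0.654 and 0.0804 CPM in microglia (log2 fold change 5.28, SE 0.83, adjusted p = 0.00012). Acod1, which makes the antimicrobial metabolite itaconate, had 16.2, 39.95 and 51.3 CPM in infiltrating myeloid cells and 2.95, 0.831 and 0.804 CPM in microglia (log2 fold change 4.49, SE 0.75, adjusted p = 0.00023). Slc7a2, an arginine transporter, stood at 5.35 (adjusted p = 0.00055). Ptgs2, the inducible cyclooxygenase of prostaglandin synthesis, had 59.5, 58.9 and 112 CPM in infiltrating myeloid cells and 4.86, 6.42 and 12.5 CPM in microglia (log2 fold change 3.28, SE 0.42, adjusted p = 1.4e-05). Alox5ap, the activating protein of leukotriene synthesis, had 756, 701 and 700.2 CPM in infiltrating myeloid cells and 233, 258 and 255 CPM in microglia (log2 fold change 1.53, SE 0.17, adjusted p = 2.1e-06), with replicates of each cell type within a narrow range. None of these genes overlapped between the cell types.

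Glycolysis and hypoxia genes were higher in 19 and lower in 3 (Slc2a5, Slc16a1 and Pdk1) of 35 tested members, with a median of 1.13. Vegfa, the vascular growth factor induced by hypoxia, had 29.7, 69.4 and 144 CPM in infiltrating myeloid cells and 1.49, 2.87 and 3.13 CPM in microglia (log2 fold change 5.03, SE 0.58, adjusted p = 3.9e-06). Slc2a1, the glucose transporter GLUT1, and Slc16a3, the lactate exporter MCT4, stood at 1.28 (adjusted p = 0.00091) and 1.32 (adjusted p = 0.0016), and with total counts both fell just short of the threshold at 0.91 and 0.94. Ldha, which makes lactate, was at 1.02 (adjusted p = 0.0031) and lost its call with total counts (0.65), without replicate 1 of microglia (0.81) and without replicate 2 of the infiltrating myeloid cells (0.92). Slc2a3, at 0.77 (adjusted p = 0.23), was not called, and neither was Hk2, hexokinase 2, at -0.61 (adjusted p = 0.11), which passed at -1.11 without replicate 2 of the infiltrating myeloid cells. Of the transporters named, Slc2a1 and Slc16a3 were thus called higher and Slc2a5 and Slc16a1 lower, while the list's share of lower calls was near that of all genes.

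Lipid genes were higher in 14 of 29 and lower in 2 (Mylip and Ch25h). Apoe, the lipid carrier of macrophages and glia, had 2102, 1216 and 1121 CPM in infiltrating myeloid cells and 313, 138 and 159 CPM in microglia (log2 fold change 2.86, SE 0.58, adjusted p = 0.0014). Plin2, a coat protein of lipid droplets, had 279, 322 and 450.1 CPM in infiltrating myeloid cells and 39.5, 94.97 and 98.4 CPM in microglia (log2 fold change 2.18, SE 0.46, adjusted p = 0.0020). Replicate 1 of the infiltrating myeloid cells was the highest library for Apoe and the lowest for Plin2, without reaching microglia in either. The call of Cd36, a fatty acid receptor, at 1.91 (adjusted p = 0.044) was lost without any 1 of the 3 microglia libraries (log2 fold changes 1.64, 2.05 and 2.10), without replicates 2 and 3 of the infiltrating myeloid cells (1.69 and 1.83) and with total counts. Lysosomal genes lay nearer the background shares, with 6 higher and 4 lower of 42, the latter with Ctsf, Ctso and Naglu among them, and 32 not called. Lgmn and Ctss stayed within the fold threshold at -0.91 (adjusted p = 0.0015) and -0.68 (adjusted p = 0.012), and Lgmn passed it at -1.01 without replicate 2 of the infiltrating myeloid cells. Ctsd had 960.1, 1401 and 924 CPM in infiltrating myeloid cells and 1002, 1270.1 and 918 CPM in microglia with overlap.

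Genes known from disease-associated microglia were not confined to microglia. Of 25 tested, 9 were higher in infiltrating myeloid cells and 3 (Trem2, Cst7 and Ch25h) lower. Clec7a, the β-glucan receptor dectin-1, had 109.7, 202 and 262 CPM in infiltrating myeloid cells and 18.1, 14.6 and 17.4 CPM in microglia (log2 fold change 3.52, SE 0.34, adjusted p = 6.1e-07). Spp1, osteopontin, had 1484, 1894 and 1044 CPM in infiltrating myeloid cells and 112, 334 and 215 CPM in microglia (log2 fold change 2.74, SE 0.52, adjusted p = 0.00074). Itgax, encoding CD11c, had 38.3, 21.4 and 23.9 CPM in infiltrating myeloid cells and 2.48, 4.43 and 3.29 CPM in microglia (log2 fold change 3.04, SE 0.37, adjusted p = 7.9e-06). Trem2, the lipid-sensing receptor that this state depends on, was lower at -1.35 (adjusted p = 0.0029), and its call and that of Cst7 were lost in the fit of the 6 libraries alone (adjusted p = 0.064 and 0.12). Axl, at 1.80 (adjusted p = 0.011), lost its call without replicate 1 or 2 of microglia, with log2 fold changes of 1.69 and 1.64.

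Purinergic genes were higher in 7 and lower in 4 (P2ry12, P2ry13, P2rx7 and Adora3) of 23. The nucleotide receptors P2rx4 at 0.66 (adjusted p = 0.025) and P2ry6 at -0.37 (adjusted p = 0.24) were not called. P2ry12, which steers microglial processes to ATP, had 108, 77.9 and 77.6 CPM in infiltrating myeloid cells and 1632, 724 and 727 CPM in microglia (log2 fold change -3.55, SE 0.47, adjusted p = 1.8e-05). Adora3, an adenosine receptor, had 1.99, 4.86 and 8.37 CPM in infiltrating myeloid cells and 30.4, 26.4 and 35.2 CPM in microglia (log2 fold change -2.58, SE 0.36, adjusted p = 3.7e-05). P2rx7, the ATP-gated channel, was at -1.40 (adjusted p = 0.00067), a call lost in the fit of the 6 libraries alone. Replicate 1 of microglia had more than 2 times the P2ry12 level of the other microglia libraries.

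Genes of TGF-β and activin signaling showed no common direction. Of the 7 defining members 2 receptors were lower in infiltrating myeloid cells and 1 ligand subunit was higher. Of 36 tested genes 7 were higher and 6 lower, with a median of -0.03, and without replicate 1 of microglia 4 were higher. Tgfbr1 and Tgfbr2, the receptors for TGF-β, had log2 fold changes of -1.70 (adjusted p = 1.9e-05) and -1.65 (adjusted p = 6.3e-06), and Tgfbr2 had 42.4, 39.4 and 35.6 CPM in infiltrating myeloid cells and 131, 127 and 111 CPM in microglia. Inhba, the subunit of activin A, had 15.7, 6.61 and 72.5 CPM in infiltrating myeloid cells and 0.209, 0.0252 and 0.161 CPM in microglia (log2 fold change 7.80, SE 1.01, adjusted p = 1.6e-05), with the infiltrating myeloid libraries spread widely but all above microglia. Tgfb1 had 145, 129 and 142 CPM in infiltrating myeloid cells and 69.3, 76.2 and 74.5 CPM in microglia and was within the fold threshold at 0.92 (adjusted p = 0.00012), but passed it under 5 alternatives, none of which left out a single library, at 1.04 to 1.06.

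Transcription factors of microglia and macrophages were higher in 15 and lower in 5 (Mef2c, Sall1, Sall3, Bhlhe41 and Tal1) of 38 tested genes, with a median of 0.82. Cebpb, a factor of monocyte and neutrophil inflammatory genes, had 39.5, 49.6 and 68.2 CPM in infiltrating myeloid cells and 6.09, 9.24 and 10.9 CPM in microglia (log2 fold change 2.59, SE 0.28, adjusted p = 2.0e-06). Mef2c, needed in microglia to restrain inflammation, had 51.4, 67.9 and 59.8 CPM in infiltrating myeloid cells and 237, 209.6 and 239.6 CPM in microglia as the reverse case. Spi1, encoding PU.1, which all of these cells need, had 279, 256 and 211 CPM in infiltrating myeloid cells and 112, 129 and 119 CPM in microglia, and its log2 fold change of 1.05 (adjusted p = 2.4e-05) fell below the threshold with total counts (0.64) and without replicate 1 of the infiltrating myeloid cells (0.96). Irf8 at -0.89 (adjusted p = 0.0040) and Cebpa at -0.30 (adjusted p = 0.45) were not called.

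Matrix proteases and their inhibitors were higher in 10 and lower in 2 (Mmp2 and Adamts1) of 27 tested genes. Timp1, an inhibitor of metalloproteinases, had 73.3, 69.7 and 80.2 CPM in infiltrating myeloid cells and 1.16, 0.378 and 0.0804 CPM in microglia (log2 fold change 6.94, SE 0.66, adjusted p = 1.1e-06). Mmp25, a membrane-bound protease of neutrophils, had 6.23, 6.93 and 6.38 CPM in infiltrating myeloid cells and 0.537, 0.201 and 0.281 CPM in microglia (log2 fold change 4.22, SE 0.72, adjusted p = 0.00030). Both were apart in every library. Timp2, at -0.83 (adjusted p = 0.0041), did not reach the fold threshold. The protease Adam8, at 1.56 (adjusted p = 0.020), lost its call without replicate 1 or 3 of microglia (log2 fold changes 1.22 and 1.55) and without replicate 2 of the infiltrating myeloid cells (1.31).

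Cell cycle genes were lower in 13 of 36 tested members and higher in none, with a median of -1.56, and without replicate 3 of microglia 8 were lower. Levels were low in both cell types. Top2a, which untangles DNA in dividing cells, had 5.15, 1.26 and 4.42 CPM in infiltrating myeloid cells and 11.4, 10.1 and 11.5 CPM in microglia (log2 fold change -1.61, SE 0.59, adjusted p = 0.059). Mki67, a marker of dividing cells, had 3.93, 2.00 and 4.17 CPM in infiltrating myeloid cells and 9.47, 5.49 and 10.0 CPM in microglia (log2 fold change -1.31, SE 0.52, adjusted p = 0.082). Neither passed the test, although neither gene overlapped between the cell types. With total counts both did, at -2.02 (adjusted p = 0.029) for Top2a and -1.72 (adjusted p = 0.039) for Mki67, and Top2a did with the Wald test of DESeq2 at -1.48 (adjusted p = 0.043). Cdk1, the kinase of mitosis, was called at -1.82 (adjusted p = 0.041) and lost the call under 8 alternatives, among them without any of the 3 microglia libraries (log2 fold changes -1.93, -1.98 and -1.52) and without replicate 1 or 2 of the infiltrating myeloid cells (-1.55 and -1.81).

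Immediate early genes, which are also induced when tissue is dissociated, were higher in 23 of 34 and lower in none, with a median of 1.99. Dusp1, a phosphatase that limits stress kinases, had 465, 340.4 and 827 CPM in infiltrating myeloid cells and 31.8, 10.8 and 41.9 CPM in microglia (log2 fold change 4.27, SE 0.67, adjusted p = 0.00012). Atf3, a stress-induced transcription factor, had 41.7, 26.0 and 86.6 CPM in infiltrating myeloid cells and 9.88, 7.60 and 10.8 CPM in microglia (log2 fold change 2.45, SE 0.40, adjusted p = 0.00017). Fos, an AP-1 subunit, had 303, 113 and 313 CPM in infiltrating myeloid cells and 17.9, 3.22 and 27.4 CPM in microglia (log2 fold change 3.91, SE 0.88, adjusted p = 0.0032). Junb and Jun, which pair with Fos, stood at 1.88 (adjusted p = 0.0024) and 1.99 (adjusted p = 0.0064). Replicate 2 was the lowest library of its cell type for Fos in both sorts. The part of the dissociation in these levels was not tested. Fosb, at 2.90 (adjusted p = 0.017), lost its call without replicate 2 of microglia (2.54) and without replicate 3 of the infiltrating myeloid cells (2.16).

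Promoter sequences were searched for exact matches to binding motifs of factors that shape these cells, from 250 bases before to 50 bases after the start of each gene on either strand. The motifs were GAGGAAGT for PU.1, TTGCGCAA, TTGCATCA or TTGCACAA for C/EBP, GTCTAGAC for SMAD, CTATTTATA or CTAAAAATA for MEF2, TGACTCA for AP-1 and GGGACTTTC for NF-κB. A promoter was found for 1229 of the higher and 1457 of the lower genes, beside 27025 promoters in all. The PU.1 motif stood in 5.29% of the promoters of higher genes, in 3.36% of those of lower genes and in 3.25% of all. The AP-1 motif stood in 7.24% and 2.54% beside 5.17% of all, and the C/EBP motif in 2.52% and 1.03% beside 2.10%. The MEF2 motif stood in 0.326% of higher and 1.03% of lower genes beside 0.929% of all. These were 4 and 15 promoters, with overlapping 95% intervals of 0.127% to 0.834% and 0.625% to 1.69%. The NF-κB motif was found in 0.651% and 0.412% beside 0.348%, and the SMAD motif in 1 promoter of each group. Among the 13352 promoters of tested genes, from which the called genes come, the shares were 3.13% for PU.1, 3.87% for AP-1 and 1.68% for C/EBP. They were 0.674% for MEF2 and 0.39% for NF-κB. A match describes letters in a window, and binding was not measured.

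Of the genes named above by adjusted p or as defining members of a list, 32 of the 186 with a promoter had a match and 4 had more than 1. The promoters of the 3 of these that were called are shown because they carry matches in genes of both directions. Each is the 250 bases before the start on the gene's strand, from RefSeq on GRCm38.p6, with the matches in capitals.
Adora3, chr3:105904171-105904420, plus strand, AP-1 and PU.1 matches: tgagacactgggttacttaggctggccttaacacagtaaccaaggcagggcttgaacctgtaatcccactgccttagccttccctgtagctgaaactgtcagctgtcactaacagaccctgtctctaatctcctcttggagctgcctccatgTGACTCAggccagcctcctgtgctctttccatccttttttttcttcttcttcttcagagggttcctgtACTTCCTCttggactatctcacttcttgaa
S100a4, chr3:90603520-90603769, plus strand, MEF2 match: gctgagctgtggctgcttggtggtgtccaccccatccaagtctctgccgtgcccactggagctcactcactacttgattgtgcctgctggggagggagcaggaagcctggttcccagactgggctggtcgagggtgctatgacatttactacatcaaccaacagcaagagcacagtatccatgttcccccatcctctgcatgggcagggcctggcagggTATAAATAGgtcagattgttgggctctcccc
Ly6c2, chr15:75111972-75112221, minus strand, PU.1 match: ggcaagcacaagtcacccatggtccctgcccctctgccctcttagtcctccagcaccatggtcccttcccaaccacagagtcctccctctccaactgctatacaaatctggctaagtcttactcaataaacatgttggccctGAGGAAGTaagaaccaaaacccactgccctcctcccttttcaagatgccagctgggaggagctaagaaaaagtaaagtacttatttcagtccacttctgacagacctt
Adora3 was lower in infiltrating myeloid cells, and S100a4 and Ly6c2 were higher, the last with 119, 75.9 and 121 CPM in infiltrating myeloid cells and 9.07, 0.227 and 0.362 CPM in microglia (log2 fold change 4.97, SE 1.36, adjusted p = 0.012). In S100a4 the capitals lie close to the start and hold the letters of a TATA box as well. The second matches of S100a4 and Ly6c2 lie past the start and are not shown.

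Most of the division between the cell types was also present in WT mice. The same contrast in WT mice at 1 d, in libraries that share none with the mutant ones, called 1337 genes higher and 1502 lower, 5.61% and 6.31% of the genes tested. In both genotypes 1100 genes were higher and 994 lower, which is 52.8% of the calls in mutant mice and 73.8% of those in WT mice, and 2 genes were called in opposite directions. These 2, Cntf and Gm16044, had no count in the infiltrating myeloid libraries of mutant mice. In WT mice the log2 fold change was 6.44 for Arg1, 6.04 for F10, 4.56 for Il1b and -3.84 for Sall1, beside 6.79, 6.89, 4.43 and -4.13 in mutant mice. List medians stood side by side at -2.44 in WT and -2.54 in mutant mice for homeostatic microglia, and at 4.65 and 5.19 for inflammatory monocytes. For the list of arginine and itaconate genes, which also holds prostaglandin and leukotriene genes, they were 2.86 and 4.38.

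The difference between the genotypes was tested directly as an interaction, at an adjusted p under 0.1 and an absolute log2 difference above 1. It called 11 genes, 0.0462% of those tested, of which 10 were negative and 1 was positive, and none belonged to any of the 32 lists. At an unadjusted p under 0.05 there were 1994 genes. Zfp286, a zinc finger gene, had 1.46, 2.64 and 1.33 CPM in microglia and no count in infiltrating myeloid cells of mutant mice, at least 18.5-fold lower. In WT mice its libraries ran from 0.390 to 1.22 CPM in microglia and from 0.263 to 0.856 CPM in infiltrating myeloid cells (log2 difference -8.12, adjusted p = 0.034). Mymk, a gene of muscle cell fusion, had 0, 0.0247 and 0 CPM in infiltrating myeloid cells and 11.3, 4.61 and 4.22 CPM in microglia in mutant mice, and 2.42 to 6.37 CPM in microglia and 0.225 to 2.32 CPM in infiltrating myeloid cells of WT mice (log2 difference -6.98, adjusted p = 0.038). Both genes were low, and in mutant mice nearly all of the infiltrating myeloid libraries held none.

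**Figure D5:**
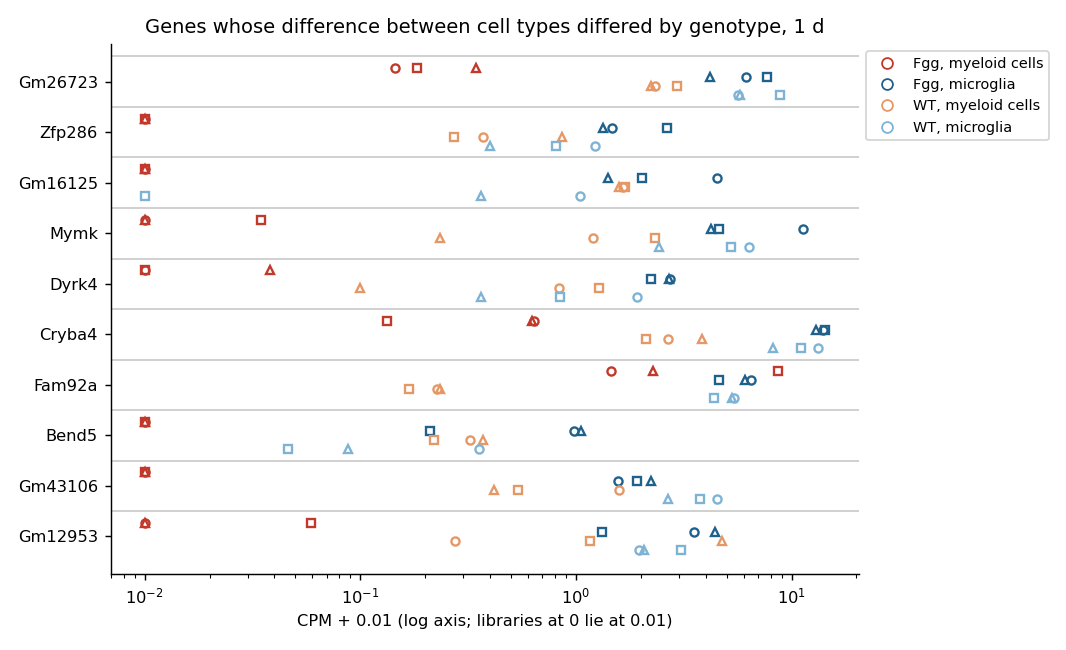
CPM plus 0.01 on a log axis for 10 genes taken by smallest adjusted p from the interaction, in the 4 groups of 3 libraries at 1 d, with libraries at 0 drawn at 0.01. In 7 of the genes all or most infiltrating myeloid libraries of mutant mice lie at 0, while those of WT mice do not.

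This count rested on few libraries. It was 147 without replicate 3 of the mutant infiltrating myeloid cells and 0 without replicate 3 of the WT microglia, where 1466 genes remained at an unadjusted p under 0.05, and the Wald test of DESeq2 called 241 genes. Fgg lies on chromosome 3, where 83 of 1462 tested genes were higher and 158 lower, so that 16.5% were called beside 16.7% on the other chromosomes, and 1 of the interaction genes, Gm43106, lies there.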

How the data were processed

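RNA was extracted from sorted cells, amplified and sequenced. Per the study's methods, reads were quantified with salmon on GRCm38 in the nf-core/rnaseq pipeline, and the submitters' processing notes name R 4.2.0 and DESeq2 1.36.0. The authors deposited estimated counts per gene (expected counts) from which gene length is divided out and which are not normalized between libraries. Those values were rounded to whole counts here.

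Of 45706 identifiers, 45143 matched GENCODE M21. Genes with at least 5 counts over the 21 libraries were tested with edgeR 4.0.16 under R 4.3.3 by its quasi-likelihood method (glmQLFTest, two-sided) after TMM scaling, in a single fit with 1 mean for each of 7 groups. P-values were adjusted by Benjamini-Hochberg over all genes tested. Standard errors were taken from the fold change and its F statistic. Thresholds were an adjusted p of 0.05 between cell types and 0.1 between genotypes, with an absolute log2 fold change of 1. The common biological coefficient of variation was 0.643. Each library pooled 2 mice, so that p-values measure the spread between such pools. Floors cover counting error only, and reads carry no molecular identifiers. No 2 replicates agreed within sampling noise (chi-square per degree of freedom at least 57.2). The steps were tested on simulated data.

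The genes and gene lists, written from general knowledge, were chosen with earlier results of these data known. The text names the first 10 called protein-coding genes by adjusted p in either direction whose groups did not overlap, the 5 most abundant called in each direction, up to 6 defining members of each list in order of adjusted p, Fgg, Itgam, Itgb2 and Ptprc, and 10 interaction genes. Some genes that this rule covers are not reported here. Others are marked as named after their values were seen. Alternatives were DESeq2 size factors, upper-quartile factors and total counts in place of TMM, the Wald test of DESeq2 1.42.0, filterByExpr, no filter, only the libraries compared, a replicate block, ribosomal RNA or chromosome 3 genes left out, other thresholds and each library left out. Promoters came from RefSeq on GRCm38.p6, 1 start for each gene, the farthest upstream.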

Additional observations from a re-analysis of the deposited data

Results flagged for a closer look

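The first 10 genes by adjusted p in the test of the genotype difference were singled out because the difference between infiltrating myeloid cells and microglia was not the same in mutant and WT mice at 1 d. The log2 differences, mutant minus WT, are fitted values that depend on the prior count where a group is at 0 and are no bounds. Among protein-coding genes they were -8.12 for Zfp286 (adjusted p = 0.034), -6.98 for Mymk (0.038), -6.99 for Dyrk4 (0.045), -3.05 for Cryba4 (0.045), -8.48 for Bend5 (0.084) and 4.14 for Fam92a (0.084), all from edgeR's interaction test with 3 libraries in each of the 4 groups. Cryba4, a crystallin, had 0.632, 0.123 and 0.616 CPM in the infiltrating myeloid cells of mutant mice and 2.11 to 3.83 CPM in those of WT mice, while microglia held 12.98 to 14.3 and 8.16 to 13.2 CPM. Fam92a was the only gene in the other direction, with 1.45, 8.66 and 2.27 CPM in mutant and 0.158 to 0.225 CPM in WT infiltrating myeloid cells. Of the non-coding genes, the lincRNA Gm26723 had a log2 difference of -3.31 (adjusted p = 0.032) and did not overlap between the genotypes in infiltrating myeloid cells. Gm16125 at -11.2 (0.038) and Gm43106 at -6.80 (0.089) are processed pseudogenes, and Gm12953 at -6.82 (0.089) is antisense to another gene, so that their reads may belong to other loci. Every one of these genes stayed below 15 CPM in the libraries of both cell types.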

How the results depend on the processing

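Over 5354 values of named genes and lists under the alternatives, no called fold change reversed, 115 lost a call, 92 gained one, 92 moved (counts by over 1.5 times, motif shares beyond their interval), and 5055 did none of these. Among the last were 110 uncalled fold changes, in 36 genes such as Itgam, Tnf and Ccl3, that changed sign, and 201 of 272 named genes had the same call throughout. The count of genes lower in infiltrating myeloid cells (2310) was 3675 with total counts, 691 in the fit of the groups compared and 617 with a replicate block, under which 1391 genes were higher. Interaction genes (11) numbered 7 with total counts, 0 with only the groups compared (1351 at an unadjusted p under 0.05), 5 with the replicate block, 6 at an adjusted p under 0.05 and 241 with the DESeq2 Wald test. Leaving out single libraries gave 1351 to 1651 genes higher, 1744 to 2657 lower, 2317 to 2606 called in WT mice and 0 to 147 in the interaction. There it gave 2 without replicate 1 and 6 without replicate 3 of mutant microglia, 25 without replicate 1 and 147 without replicate 3 of mutant infiltrating myeloid cells, and 2 and 0 without replicates 2 and 3 of WT microglia (1466 at an unadjusted p under 0.05 in the last). The fit of the groups compared has fewer residual degrees of freedom and the DESeq2 test another estimate of the spread, and beyond that the cause was not tested. Deviations of same-numbered libraries correlated at r = -0.01, 0.05 and 0.01 in mutant mice and 0.13, 0.17 and 0.02 in WT mice, over 12302 genes. With 3 libraries in each sort, these values cannot decide whether same-numbered sorts came from the same pool. Why calls were lost under the block was not tested. With motifs counted on 1 strand, the share with the C/EBP motif among lower genes fell from 1.03% to 0.343%, in proportion the largest drop of the motif shares. In percentage points the AP-1 share among higher genes fell more, from 7.24% to 3.255%, and so did the PU.1 share, from 5.29% to 2.685%. For a motif that reads differently on the other strand, a count on 1 strand lowers the share by construction. Depth limits genes near the floor of 0.0448 to 0.136 CPM.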

Other observations

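Families of genes outside the lists were examined after the data were seen. Cytosolic ribosomal protein genes summed to 84242 to 90690 CPM in infiltrating myeloid cells and 45498 to 71510 CPM in microglia of mutant mice, beside 23158 to 29589 CPM in microglia of sham-operated WT mice. Of these 84 genes 5 were higher (Rps27l, Rpl38, Rpl34, Rps28 and Rps27) and none lower, with a median log2 fold change of 0.54, so the family as a whole stayed within the fold threshold while its sums did not overlap. Of the 13 protein genes of the mitochondrial genome 2 were lower (mt-Nd2 and mt-Nd6) and none higher, with a median of -0.63, and their sums of 24994 to 38577 CPM in infiltrating myeloid cells and 35808 to 61589 CPM in microglia overlapped. In WT mice 11 of the 13 were lower, with a median of -1.56, and the difference between the genotypes was not tested for the family. Nuclear genes of oxidative phosphorylation had 4 higher (Uqcrb, Atp5l, Uqcr10 and Cox5b) and 3 lower (Ndufaf7, Cox6a2 and Atp5s) of 91, with a median of 0.41. Of 38 proteasome genes Psmd10 was higher and Psma8 lower, with a median of 0.30. Over all genes tested 6.96% were higher and 9.7% lower. The calls in the ribosomal, oxidative phosphorylation and proteasome families did not exceed these shares, and nothing is read from them. With total counts the median of all genes shifts by -0.39, which exceeds the proteasome median and nearly equals that of oxidative phosphorylation.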
